A study of Triticum aestivum with 4 samples.

Results

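CHH regions overlapping genes are stretches of the wheat genome that the authors listed as differing in CHH methylation between seedlings from ultrasound-treated and from untreated seeds, and that touch an annotated gene. They were taken as every region of the authors' CHH list whose place relative to its gene is given as overlapping, a choice made by position and not by any level. There were 208 of them, out of 740 CHH regions and out of 3119 regions over the CpG, CHG and CHH lists, and they touched 205 genes. All of the seedlings were the winter wheat line SE15, a breeding line of hexaploid bread wheat. In the ultrasound group, 100 dry seeds with a water content of 13.6% were sonicated in open dishes for 5 min (30 kHz, 70 W, 4 cm from the source). In the control group, 100 seeds of the same water content were not sonicated. Both groups then germinated at 20 °C in the dark, and seedlings were taken on day 7.

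The labels name 4 libraries, 2 per group, made with an enzymatic methyl-seq kit, in which enzymes convert unmethylated cytosines. The levels used here come from 1 ultrasound and 1 control library, so each value is a single measurement, the difference between the groups has no replicate check, and no test between the groups was run. The control column carries the letter K, which the labels do not explain; it was taken as control number 1 because the list compares it with the ultrasound column. Read depth behind the levels is unknown. Intervals below are 95% intervals over regions. They cover counting error only and treat neighbouring regions as independent.

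CHH sites are cytosines with no G at either of the following positions, H being the code for any base but G. Because the opposite strand carries no matching cytosine, CHH methylation has to be set anew after each round of DNA replication. In plants this is done by DRM methyltransferases guided by small RNAs and by chromomethylases that bind methylated histone H3. CHH methylation is known mainly from transposons and the edges of genes, while gene bodies more often carry CpG methylation.

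The regions were short. Their median length was 353 bp (order-statistic interval 341 to 364), and 123 of 208, or 59.1%, measured between 300 and 400 bp. The shortest, of 225 bp, and the longest, of 1974 bp, bound the range, and 4 regions exceeded 1000 bp. CHG and CpG regions that overlap genes were longer, with medians of 1371 bp (1322 to 1418) and 1094 bp (974 to 1223). CHH regions upstream or downstream of genes had a median of 341 bp (336 to 346), so the overlapping ones were 12 bp longer at the median, with an interval of the difference from -1 to 24.1 bp that includes 0. The files do not say whether a region lies in an exon, an intron or a UTR, and the genome build is not given in the sources used here.

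**Figure D1:**
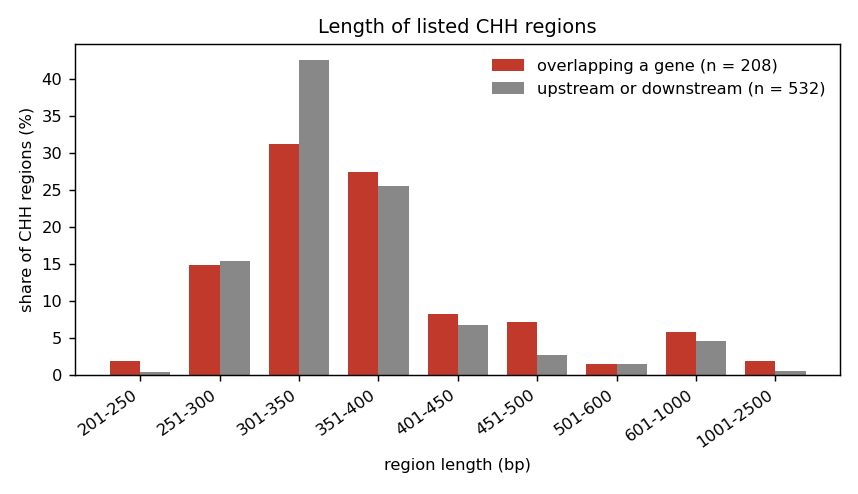
Share of CHH regions (y axis, percent of each set) by region length (x axis, bp) for the 208 regions overlapping a gene and the 532 regions upstream or downstream of one. Both sets peak at 301 to 350 bp, which holds 31.2% of the overlapping and 42.7% of the flanking regions.

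Most of these gene-overlapping regions had less CHH methylation after ultrasound. Of the 183 regions with a level in both libraries, 144 were lower in the ultrasound library and 39 higher. That is 78.7% lower (exact binomial interval 72.0 to 84.4), beside 77.1% of all 668 CHH regions with both levels, and 21.3% higher, beside 22.9%. The median level was 0.850% in the ultrasound library and 12.9% in the control library. At the median, the difference of ultrasound minus control was -11.6 points on the percent scale (-13.7 to -10.4), with quartiles at -18.3 and -6.33 points.

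The direction of overlapping regions could not be told apart from that of flanking regions at this number. The share lower was 78.7% in overlapping and 76.5% in flanking CHH regions, a difference of 2.19 points with an interval from -5.42 to 9.17. Within the flanking set, upstream regions were lower in 80.8% of cases and downstream regions in 72.8%, a difference of 8.01 points (0.164 to 15.6). That comparison was among several of shares, and its interval makes no allowance for their number. Against CHG regions overlapping genes the difference of shares was -1.96 points (-9.06 to 4.34), and against CpG regions overlapping genes it was 3.18 points (-5.29 to 11.4). The 3 intervals of overlapping regions against other sets include 0, which does not show that the shares are alike.

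No region with both levels differed by less than 3.89 points, and the median absolute difference was 14.4 points. At a minimum difference of 10 points, 108 regions were lower, or 59.0% (55.4% over all CHH regions), and 30 were higher, or 16.4% (18.0% over all CHH regions). At 25 points, 17 were lower, or 9.29% (9.58% over all CHH regions), and 4 were higher, or 2.19% (2.40% over all CHH regions), so the shares lay close to those of the whole list. The regions had passed the authors' selection for a difference, so small differences are not represented.

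In most of these regions the library with less methylation had almost none. In 131 of 183 regions, or 71.6% (64.5 to 78.0), the lower of both levels was at most 1%, beside 66.8% of all CHH regions. The median of the lower level was 0.431% (0.333 to 0.566) and that of the higher level 15.9% (13.4 to 16.8). In flanking CHH regions 64.9% were at or under 1%, a difference of 6.64 points whose interval, -1.66 to 14.4, includes 0. In CHG regions overlapping genes the share was 12.8%, a difference of 58.8 points (51.3 to 65.6), and in CpG regions overlapping genes 22.0%, a difference of 49.5 points (40.4 to 57.7). The same 1% limit was used in each context, though the median of the higher level was 23.1% in CHG and 50.4% in CpG regions. Whether these higher levels or the greater length of those regions contributed to the gaps was not tested.

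**Figure D2:**
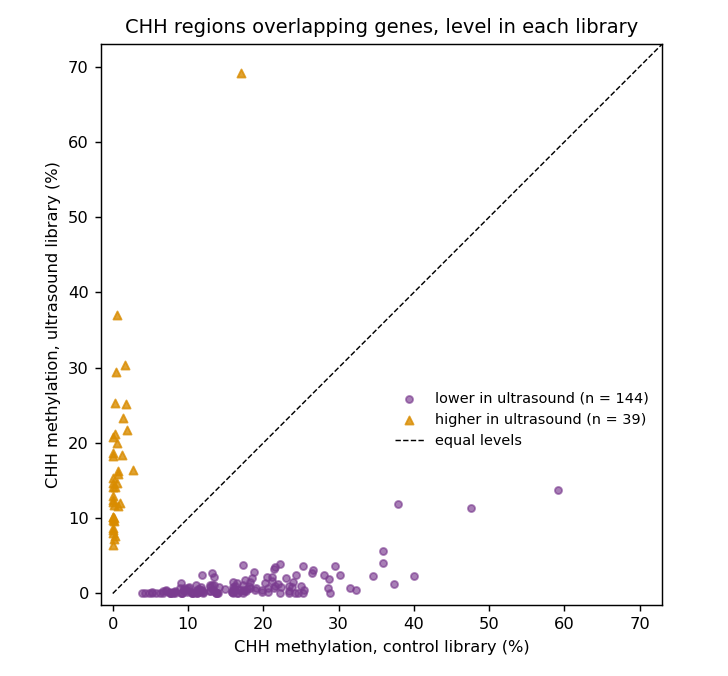
CHH methylation level in the ultrasound library (y axis, %) against the control library (x axis, %) for the 183 gene-overlapping CHH regions with both levels; each point is 1 region, and the dashed line marks equal levels. The points lie along the axes, with 144 below the line and 39 above it, and 5 regions have more than 5% in their lower library.

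Levels near zero were found in both directions. Among the 144 regions that were lower, the ultrasound level had a median of 0.510% and the control level one of 15.9%. Ultrasound levels there ran from 0 to 13.7%, and 99 of them, or 68.8%, were at most 1%. Among the 39 that were higher, the median was 14.6% in the ultrasound library and 0.151% in the control library, and 32 of the control levels, or 82.1%, were at most 1%. The median size of the difference was -15.1 points (-16.5 to -12.5) in the lower regions and 14.2 points (11.1 to 18.3) in the higher ones. In flanking CHH regions, 62.3% of the lower ones were at most 1% in the ultrasound library, and 73.7% of the higher ones in the control library.

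A level of exactly 0 in 1 library was listed for 39 regions, or 21.3% (19.5% over all CHH regions). It was the ultrasound level in 23 of the 144 lower regions, or 16.0% (10.4 to 23.0), and the control level in 16 of the 39 higher regions, or 41.0% (25.6 to 57.9). The difference of these shares, higher minus lower regions, was 25.1 points (8.07 to 42.8). Flanking CHH regions showed it too, with 28.9% of the higher and 15.6% of the lower regions and a difference of 13.3 points (4.22 to 23.2). The ultrasound library lacked a level in 9 of the 208 regions, or 4.33%, and the control library in 19, or 9.13%. Among flanking CHH regions these shares were 2.63% and 7.52%. Whether coverage contributed to the zeros was not tested, since the files give none.

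Among regions listed at 0 in 1 library, some had high levels in the other. TraesCS4A02G027600 was listed at 0% in the ultrasound library and 28.8% in the control library, over the longest region of all (4A, 19525361 to 19527334). TraesCS4D02G259500 stood at 0% after ultrasound and 25.3% in the control (4D). TraesCS6D02G004500 was at 0% after ultrasound and 24.6% in the control, and TraesCS7D02G005900 at 0% after ultrasound and 24.2% in the control. In the other direction, TraesCS1A02G075000 had 20.8% in the ultrasound library and 0% in the control library, and TraesCS7A02G030100 had 18.6% in the ultrasound library and 0% in the control library. None of these 6 genes carries a description in the list. The next highest ultrasound levels beside 0% in the control lay at described genes, Rab18s and an Exo70 exocyst subunit, given further on.

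**Figure D3:**
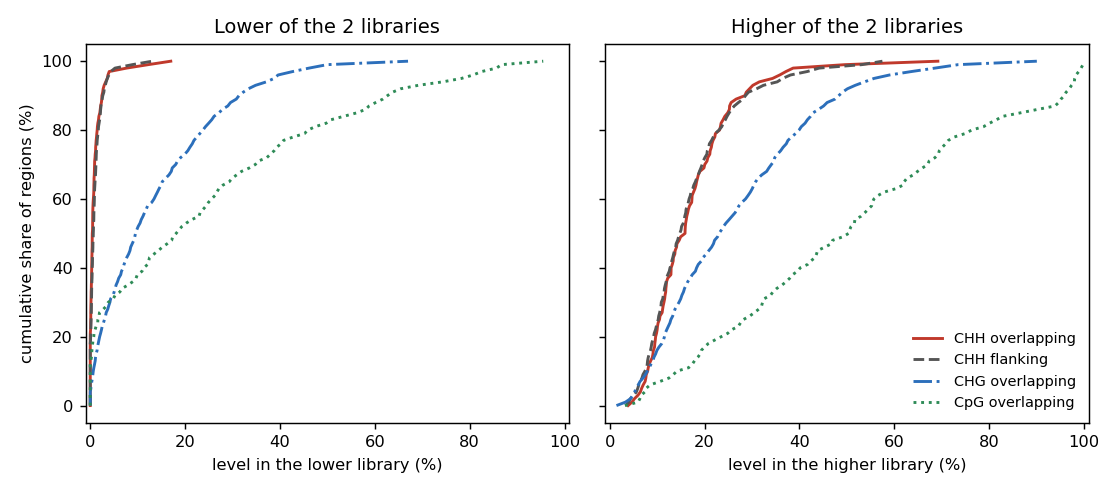
Cumulative share of regions (y axis, %) by methylation level (x axis, %) in the library with the lower level (left) and the higher level (right), for CHH regions overlapping genes, CHH regions flanking genes, and CHG and CpG regions overlapping genes, all with both levels. The lines of both CHH sets rise steeply at the left edge, with a median lower level of 0.431% in the overlapping set, against 9.54% in CHG and 18.1% in CpG.

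The largest decrease in the ultrasound library overlapped TraesCS3D02G515500, at 13.7% in the ultrasound library and 59.1% in the control library, a difference of -45.4 points in a region of 278 bp (3D, 598928998 to 598929275). TraesCS2A02G287600 followed with 2.35% after ultrasound and 40.0% in the control (2A, 490663036 to 490663282). TraesCSU02G107600, on sequence not placed on a chromosome, was at 11.3% in the ultrasound library and 47.5% in the control library. The 3 remaining of the 6 largest decreases lay at TraesCS2A02G046900, TraesCS7D02G259900 and TraesCS1D02G031900, with differences of -36.1, -32.2 and -31.9 points. No gene among these 6 is described.

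The region with the largest increase had a control level well above 1%. TraesCS3B02G396100 had 69.2% in the ultrasound library and 17.0% in the control library, a difference of 52.2 points in a region of 365 bp (3B, 624321420 to 624321784). It held the highest level of any of the 183 regions in either library. The 4 regions with more than 10% in their lower library were this one, those of TraesCS3D02G515500 and TraesCSU02G107600, and a region of 1887 bp at TraesCS2A02G421700 (2A, 677100159 to 677102045) with 11.9% after ultrasound and 37.9% in the control.

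The control level was at most 1% in 3 of the 5 next largest increases and under 2% in the other two. TraesCS2D02G003400 was at 37.0% in the ultrasound library and 0.625% in the control library (2D, 2322927 to 2323380), and TraesCS2A02G063000 at 29.5% after ultrasound and 0.373% in the control (2A, 27911552 to 27911966). TraesCS3B02G143600 was at 30.4% after ultrasound and 1.59% in the control (3B, 132392790 to 132393130). A chlorophyll a-b binding protein gene, described further on, and TraesCS2A02G003700 completed the 6 largest increases, the last of these with 25.2% after ultrasound and 1.76% in the control. Apart from the chlorophyll-binding gene, these genes carry no description.

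Direction did not follow the size of the level in any steady way. Of the 40 regions with at most 10% in their higher library, 80.0% were lower after ultrasound. The share was 76.1% of 88 regions between 10 and 20%, 82.9% of 41 between 20 and 30%, and 78.6% of 14 above 30%. Length told little about the difference either: across the 183 regions, Spearman's rho between length and absolute difference was 0.03, a description over regions that share both libraries. Lower regions had a median length of 344 bp and higher ones of 363 bp, with overlapping intervals (332 to 357 and 337 to 380).

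A description was given for 34 of the 208 regions, or 16.3%, beside 16.5% of the flanking CHH regions. Of the 28 described regions with both levels, 21 were lower after ultrasound and 7 higher, which is 75% lower (55.1 to 89.3). Among the 155 undescribed regions 79.4% were lower, and the difference of shares, described minus undescribed, was -4.35 points (-25.1 to 11.7). All 34 are treated below by what their products do, in an order set with the descriptions and values known. With 77.1% of all CHH regions lower, a word group of 3 or 4 regions with levels that are all or mostly lower does not stand apart from the rest.

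Regions at genes of photosynthesis and the organelles went both ways. The words for plastid and organelle matched 5 regions, of which 4 had both levels, 3 lower and 1 higher. The higher one was a gene for a chlorophyll a-b binding protein (TraesCS5B02G462800), an antenna protein that gathers light, with 25.3% in the ultrasound library and 0.305% in the control library over 788 bp (5B, 638336933 to 638337720). A gene like Arabidopsis SUPPRESSOR OF QUENCHING 1 (TraesCS4A02G123300), which in that species limits a form of energy loss in the light-harvesting antenna, was at 1.36% after ultrasound and 20.2% in the control (4A, 154499697 to 154499992). The gene for mitochondrial ribosomal protein S9 (TraesCS2D02G133900), part of the small subunit that translates mitochondrial messages, was listed at 0% in the ultrasound library and 17.4% in the control library (2D, 78765820 to 78766201). A plastid-lipid-associated protein gene (TraesCS2B02G455900) showed the smallest difference of all 183 regions, at 0% after ultrasound and 3.89% in the control. An ATP synthase beta subunit gene (TraesCS3A02G264700), the catalytic subunit, had 0.292% in the ultrasound library and no control level.

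The words for RNA and protein matched 3 regions, all lower, the ribosomal protein S9 gene above among them. A methionine aminopeptidase gene (TraesCS2A02G427600), whose product trims the first methionine from new proteins, was at 1.14% after ultrasound and 13.4% in the control. An RNA-binding Ras-GAP SH3 binding protein gene (TraesCS7B02G179500) was at 2.21% in the ultrasound library and 13.5% in the control library. A proteasome beta subunit gene (TraesCS1B02G443900), part of the core that degrades tagged proteins and matched by none of the words, was at 2.74% after ultrasound and 26.4% in the control (1B, 664955507 to 664955867). A RING-type E3 ubiquitin transferase gene (TraesCS2D02G275400), which tags proteins for that degradation, was at 0.170% after ultrasound and 10.6% in the control.

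The words for signalling matched that ubiquitin gene and the genes whose descriptions contain GTP, 2 of the 3 regions lower and 1 higher. The GTP-binding protein ERG gene (TraesCS7D02G283500) was listed at 0% in the ultrasound library and 4.32% in the control library. The GPN-loop GTPase gene (TraesCS1A02G306100), of a family known in yeast and human cells for RNA polymerase assembly, was at 14.2% after ultrasound and listed at 0% in the control (1A, 498177602 to 498177965). None of the words matched the next 3 genes. A coatomer beta' subunit gene (TraesCS6B02G206500), part of the coat of vesicles that return from the Golgi, was at 2.88% in the ultrasound library and 18.7% in the control library (6B, 259888219 to 259888872). An Exo70 exocyst subunit gene (TraesCS2B02G293700), of a complex that tethers vesicles to the plasma membrane, was at 15.3% after ultrasound and listed at 0% in the control (2B, 409662181 to 409662631). A gene described as Rab18s (TraesCS2D02G567100) was at 18.3% in the ultrasound library and listed at 0% in the control library (2D, 635787461 to 635787784).

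The words for the cell wall, among them the general term glycosyltransferase, matched 4 regions, and the 3 with both levels were lower. The descriptions of these genes, peroxidase or glycosyltransferase, do not themselves name the cell wall. A peroxidase gene (TraesCS7D02G369900), of enzymes that use hydrogen peroxide and can join lignin units, was at 3.48% in the ultrasound library and 21.6% in the control library (7D, 478571020 to 478571422). Glycosyltransferase genes, whose products attach sugars, were at 3.88% after ultrasound and 22.2% in the control (TraesCS3A02G332900), and at 0.155% after ultrasound and 11.9% in the control (TraesCS4A02G442700). Another (TraesCS3B02G197600) had no level in either library. A dirigent protein gene (TraesCS2D02G083600), of proteins that steer the coupling of phenolic units and matched by none of the words, was at 1.00% after ultrasound and 25% in the control (2D, 36113174 to 36113480).

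Of 5 regions at genes that act on lipids, 3 lacked a level. An acyl-ACP desaturase gene (TraesCS5D02G131500), which places a double bond in plastid fatty acids, was at 2.71% in the ultrasound library and 13.2% in the control library. An acyl-coenzyme A oxidase gene (TraesCS7D02G143200), which opens fatty acid breakdown in peroxisomes, was at 0.0833% after ultrasound and 5.69% in the control. A 3-ketoacyl-CoA synthase gene (TraesCS7B02G449000), of the enzymes that elongate fatty acids for waxes, had 19.1% in the ultrasound library and no control level. An acyl-ACP hydrolase gene (TraesCS4A02G387700), which frees fatty acids for export from plastids, had 1.76% there and none in the control, and a long-chain-alcohol oxidase gene (TraesCS6A02G225800) had neither.

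Other described regions were lower at genes of unlike function. A gene like Arabidopsis UPSTREAM OF FLC (TraesCS4A02G038000) had the largest difference of the described set, at 5.61% in the ultrasound library and 35.8% in the control library (4A, 30146755 to 30147085). A KNOX homeodomain gene (TraesCS2D02G256400), of a family that maintains the shoot meristem, was at 0.238% after ultrasound and 9.90% in the control. The Actin-related protein 7 gene (TraesCS5B02G422700) was at 0.933% after ultrasound and 21.5% in the control (5B, 597865925 to 597866196). A PMS1 mismatch repair gene (TraesCS6A02G205700) was at 1.14% in the ultrasound library and 13.2% in the control library. The gene for Disrupted meiotic cDNA 1 (TraesCS5B02G131900), a recombinase of meiosis, was at 0.185% after ultrasound and 8.13% in the control.

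The remaining described regions belonged to enzymes and membrane proteins. A glutamine synthetase gene (TraesCS4A02G266900), whose product binds ammonium into glutamine, was at 1.64% in the ultrasound library and 21.2% in the control library (4A, 579428324 to 579428637). Higher after ultrasound were an amine oxidase gene (TraesCS2B02G354400), of enzymes that break down amines, at 12.4% after ultrasound and a listed 0% in the control, and a gamma-type tonoplast intrinsic protein gene (TraesCS4A02G410800), a water channel of the vacuole, at 9.57% after ultrasound and 0.114% in the control. A flavin-containing monooxygenase gene (TraesCS4A02G006300) was at 7.66% after ultrasound and 0.291% in the control. The words for transport matched a single region, of 1128 bp, at a lysine histidine transporter-like gene (TraesCS5B02G095400), with 1.62% in the ultrasound library and no control level. The words for chromatin, stress and transcription factors matched no region, which does not mean that no such gene is present. The KNOX homeodomain and Actin-related protein 7 genes, for example, were matched by none of the words. 

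**Figure D4:**
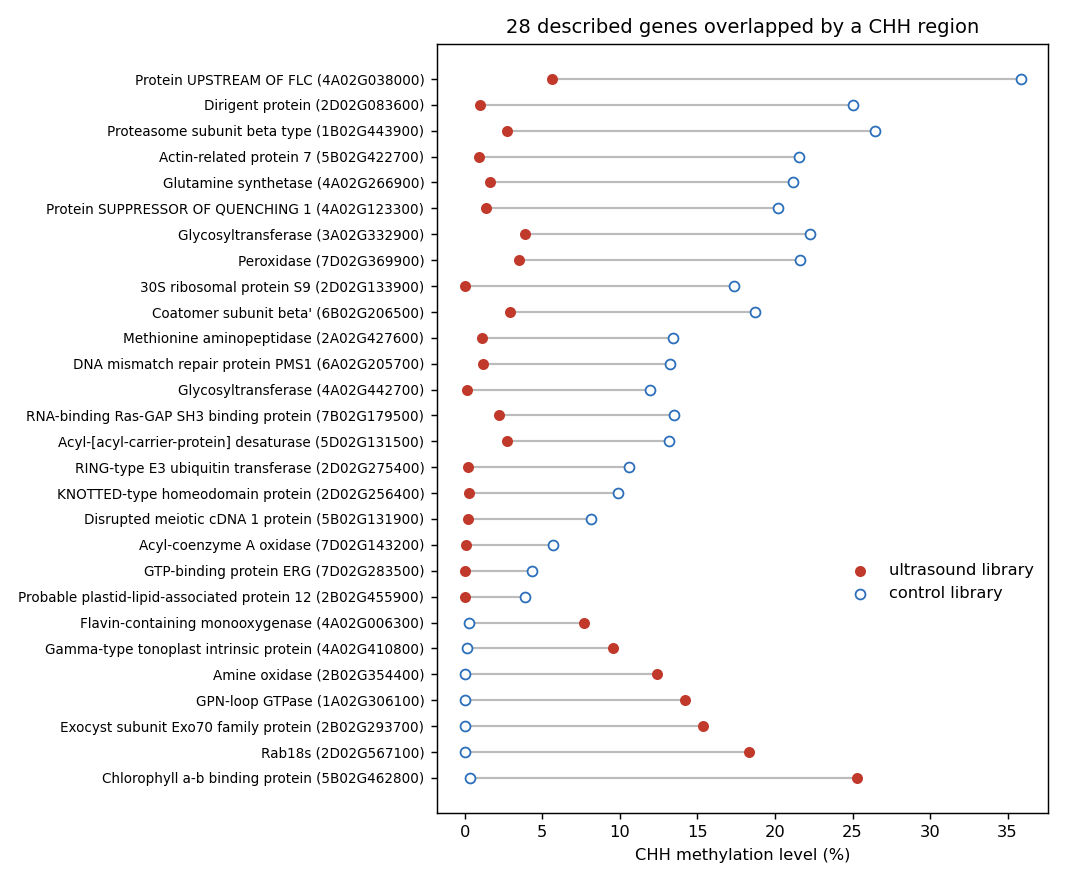
CHH methylation level (x axis, %) in the ultrasound library (filled) and the control library (open) for the 28 described genes with both levels, 1 region each, ordered by the difference; each point is a single measurement, and gene identifiers are given without the prefix TraesCS. In 21 genes the ultrasound point is left of the control point and in 7 it is to the right.

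A level was missing for 25 of the 208 regions, in the control library alone for 16, in the ultrasound library alone for 6 and in both for 3. These regions were longer, with a median of 454 bp (342 to 664), than the 183 with both levels, with a median of 350 bp (337 to 361), though the intervals overlap. Among flanking CHH regions 47 of 532 lacked a level, with a median of 359 bp, beside 339 bp for those with both levels. Of the 16 without a control level, 12 had an ultrasound level of at most 2.5%. The others were at 39.9% (TraesCS4D02G001100), 30.1% (TraesCS3B02G322000), 24.6% (TraesCSU02G138300) and 19.1% (the 3-ketoacyl-CoA synthase gene). Where only the control level was given, it ran from 0 to 42.6%, with the highest at TraesCS2B02G216300. No direction can be given for any of the 25.

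The regions lay far apart, at a median of 35.9 Mb from the next on the same chromosome, and 4 of 186 neighbouring pairs were within 10 kb of each other. A cluster of 3 regions sat within TraesCS2A02G046900 (2A, 18317093 to 18318415). Their levels were 1.25%, 0.321% and 0.102% in the ultrasound library, and 37.3%, 17.7% and 13.8% in the control library, so all 3 were lower. At TraesCS6D02G076600, 2 regions 3 bp apart were at 0% and 0.106% after ultrasound, and the first at 16.6% in the control, where the second had no level. The neighbouring genes TraesCS4A02G275200 and TraesCS4A02G275300 were both lower, by differences of -10.7 and -23.0 points. TraesCS2D02G548100 and TraesCS2D02G548200, with regions 25.6 kb apart, were both higher, by 10.2 and 12.9 points.

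By subgenome, 76 regions lay on A, 63 on B, 65 on D chromosomes and 4 on unplaced sequence. These were 36.5%, 30.3%, 31.2% and 1.92% of the regions, beside 30.8%, 34.4%, 32.7% and 2.07% of the flanking CHH regions. The share lower was 74.6% of 67 regions with levels on A (62.5 to 84.5), 79.2% of 53 on B (65.9 to 89.2) and 82.0% of 61 on D (70.0 to 90.6), with intervals that overlap. Among flanking CHH regions the share lower was 77.5% on A, 76.4% on B and 76.2% on D, without a rise from A to D. Chromosomes 2A and 2D held 20 regions each, 4A held 17 and 2B 16. These were 9.62% of the regions on each of 2A and 2D, 8.17% on 4A and 7.69% on 2B. Of the flanking CHH regions, 5.83% lay on 2A, 7.14% on 2D, 4.32% on 4A and 5.26% on 2B. On 7D all 11 regions were lower (71.5 to 100, an interval that includes the 78.7% over all chromosomes). On 1A 4 were lower and 4 higher, or 50% lower (15.7 to 84.3), an interval that includes that share too. Among flanking CHH regions with levels, 13 of 16 were lower on 7D, or 81.2%, and 15 of 17 on 1A, or 88.2%. Group 2 chromosomes together held 56 regions, 26.9% of those overlapping genes and 18.2% of the flanking ones, a difference of 8.69 points (1.81 to 16.0). That group was picked after its count was seen as the largest of 7, and the interval makes no allowance for the choice.

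**Figure D5:**
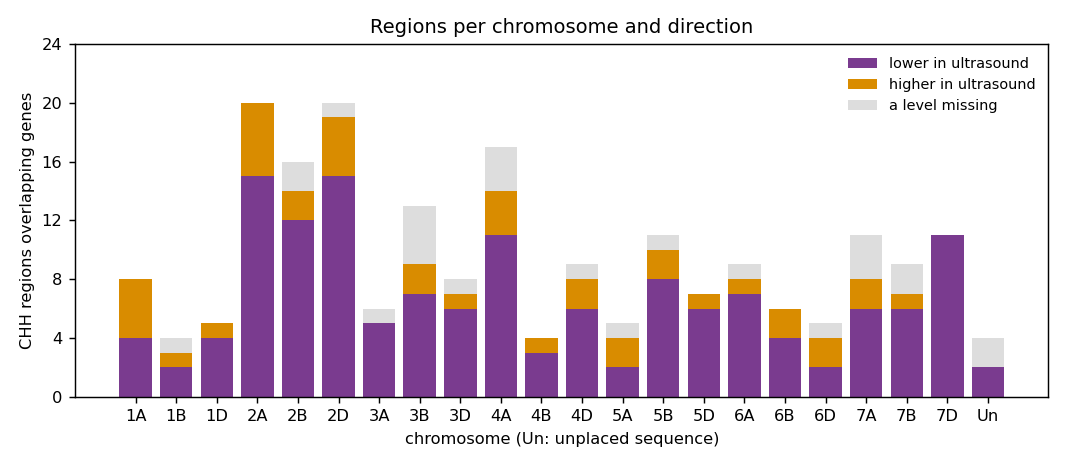
Number of gene-overlapping CHH regions (y axis) per chromosome (x axis), stacked as lower in ultrasound, higher in ultrasound, and lacking a level in at least 1 library. Chromosomes 2A and 2D hold 20 regions each, and lower regions outnumber higher ones everywhere except on 1A, 5A and 6D, where both are equally many.

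Regions at genes on the plus strand were lower in 71 of 84 cases, or 84.5%, and at genes on the minus strand in 73 of 99, or 73.7%. The difference of 10.8 points has an interval from -1.88 to 22.8, which includes 0. Among flanking CHH regions, 202 of 255 were lower at genes on the plus strand, or 79.2%. At genes on the minus strand 169 of 230 flanking regions were lower, or 73.5%, so the order was the same there.

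Some of the same genes appeared for the other contexts. Of the 205 genes, 11 also had a CpG or CHG region, and 8 of the CHH regions overlapped such a region directly. The same count was not made for the flanking CHH regions, so these numbers cannot be called low or high. The 5 overlapping CHG regions with both levels were all lower. Most CHG regions overlapping genes were lower too, by the difference of shares given earlier. The CHH regions at these 5 places were also lower, beside 77.1% of all CHH regions. At TraesCS4D02G311600, CHH levels were 0.796% in the ultrasound library and 31.5% in the control library, and CHG levels 1.09% after ultrasound and 12.8% in the control. At the acyl-coenzyme A oxidase gene, CHG levels were 20.6% after ultrasound and 34.4% in the control, well above the CHH levels there. At TraesCS2D02G041700 the CHH level was 0% after ultrasound and 11.2% in the control, inside a CHG region of 3041 bp at 0.106% after ultrasound and 8.39% in the control. CHG differences at TraesCS6A02G161600 and TraesCS7A02G545300 were -3.83 and -10.2 points, beside CHH differences of -9.17 and -10.4 points. The CHG region at the glutamine synthetase gene had 0.168% after ultrasound and no control level. Of 2 overlapping CpG regions, the one at TraesCS7D02G128400 was lower too, at 0% after ultrasound and 10.4% in the control, with CHH at 0% after ultrasound and 22.2% in the control. Both contexts come from the same pair of libraries and overlapping positions, so they are not independent.

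Opposite directions also occurred. At the other overlap with CpG, in TraesCS2A02G002800 the CHH level was 14.6% in the ultrasound library and 0% in the control library (2A, 1778350 to 1778712), while the CpG region around it (2A, 1777999 to 1779221) was at 34.8% after ultrasound and 62.0% in the control. At TraesCS7A02G475400 the CHH level was 1.25% after ultrasound and 22.0% in the control, and a CHG region 1318 bp away was at 38.4% after ultrasound and 16.2% in the control. TraesCS5B02G328600 had an overlapping CHH region at 0.745% in the ultrasound library and 20.7% in the control library (5B, 512245235 to 512245587). Its downstream CHH region, 2646 bp from the gene, was at 17.0% after ultrasound and 0.749% in the control. It was the only one of the 205 genes with a second CHH region outside it.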

How the data were processed

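Libraries came from genomic DNA of day 7 seedlings and an enzymatic methyl-seq kit, per the labels' protocols; the titles read WGBS. The authors' tools named in the submitters' processing notes, with no roles, are edgeR, Bismark 0.23.1, Trim Galore 0.6.7 and FastQC 0.11.9. Each deposited list holds a methylation level in percent per region and library, per the file headers; the authors' list names point to edgeR and a chi-square test. The sources used here do not give the genome build, the definition of a region, the selection thresholds or the coverage, so listed regions do not stand for the genome.

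Ultrasound minus control was computed for regions with both levels (Python 3.11.15, pandas 2.3.3, scipy 1.17.1). Shares have 95% exact binomial (Clopper-Pearson) intervals, medians order-statistic intervals, and differences of shares Newcombe-type intervals; the interval of a difference of medians combines both medians' intervals. The code for intervals of shares, of single medians and of differences of shares was checked on simulated data. A level of at most 1% was called near zero. With 1 library per group no p-value was computed, and the other 2 libraries were not used. Of the gene identifiers, 0 matched the reference gene table.

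The members, word groups and rule for named genes were chosen with earlier results of these data known. That rule takes every described gene, the 6 largest differences each way, the 3 longest regions, genes with several regions, regions overlapping a CpG or CHG region, and up to 4 each way at 0. Regions without a control level, neighbouring pairs and genes with opposite directions were chosen after their values were seen. Alternatives were minimum differences, each gene once, regions within 10 kb merged, subsets without unplaced or long regions, means, other near-zero limits, and upstream or downstream regions alone.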

Additional observations from a re-analysis of the deposited data

How the results depend on the processing

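No paired analysis was possible because 1 library per group had levels. The share lower stayed between 77.9% and 84.0% under the 8 alternatives tried for it, all within its interval. The differences from flanking regions and the shares by subgenome stayed within their intervals too, although the difference in the share lower was -2.12 points against upstream regions alone and 5.89 points against downstream regions alone. The median difference was -15.6 points with a minimum difference of 10 points, and the mean was -9.04 points. The median of the higher level was 17.8% with that minimum, and its mean 17.1%. Near-zero shares followed the limit: 52.5% at 0.5%, 84.7% at 2% and 97.3% at 5%. Leaving out the regions with a level of exactly 0, an alternative chosen after seeing the data, left 63.9% near zero. Mean length was 399 bp, above the median. Depth behind the levels is unknown.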
